A study of Mus musculus with 6 samples.

Results

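Genes of the unfolded protein response and of ER-associated degradation, the routes by which a cell answers to and clears misfolded protein in the endoplasmic reticulum (ER), were examined in newborn mouse kidney. The 10 members were Ern1, Atf6, Xbp1, Hspa5, Dnajb9, Sdf2l1, Herpud1, Syvn1, Sel1l and Edem1. They were found by matching each probe's accession to these genes in a RefSeq table, which gave 11 probes for 10 of 10 genes, among 21219 genes measured. All 11 probes were well above background on all 6 arrays, so no member was lost to the filter on dim probes. Herpud1 was listed because its difference between the genotypes was already known to be large. The other members were listed beside it to ask whether it moves alone. For all 10 the comparison of the genotypes is therefore a description, with no test.

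The samples were kidneys of 3 neonates labelled USP10 KO, in which the gene of the deubiquitinating enzyme Usp10 was knocked out, and of 3 neonates labelled USP10 WT, all labelled male and taken about 6 hours after birth. The series compares kidney gene expression between these genotypes. The sources used here give neither the knockout allele nor the strain. The tissue is bulk kidney, in which fewer cells of a type and less RNA per cell cannot be told apart, and 3 arrays a group limit the precision of every value.

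The arrays were scanned in 2 sets, named here scan 1 (KO replicates 1 and 2, WT replicates 2 and 3) and scan 2 (KO replicate 3, WT replicate 1). Of 43020 non-control spots, 64.4% to 73.9% per array were flagged well above background, and saturation was flagged nowhere. KO replicate 2 stood apart in that its brightest 1% of spots gave 39.1% of its total signal, where the remaining arrays had 29.4% to 31.9%. The Usp10 probe went against the labels, with 3.37 to 3.64 on the KO arrays and 2.95 to 3.12 on the WT arrays (log2, relative to the array's 75th percentile). Where the deletion lies is not stated in the sources used here, and a probe outside it would check nothing, so every direction given rests on the labels. Signal of the Y-linked genes Eif2s3y, Ddx3y and Uty was absent from WT replicate 2 by the same flag and present on all other arrays. Xist, the RNA of the inactive X chromosome, was detected on WT replicates 1 and 2, against the label male of these animals. Both Xist probes were detected on WT replicate 2. On WT replicate 1, which also had the Y-linked signal, only 1 of them was. Values against WT replicate 3 alone are therefore given for the members. All 10 kidney epithelium markers, from the nephron factor gene Pax2 to the water channel gene Aqp2, were well above background on every array. Their summed linear level was 91.2 to 106 on the KO arrays and 97.6 to 107 on the WT arrays, in multiples of the array's 75th percentile.

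Proteins that enter the ER fold with the help of chaperones, above all BiP, which Hspa5 encodes. When unfolded protein builds up, the membrane sensors IRE1 (gene Ern1), ATF6 and PERK (gene Eif2ak3) are activated. IRE1 splices the Xbp1 mRNA, so that it encodes an active transcription factor, and ATF6 is cut to release its own. Both factors induce chaperones and degradation genes through short promoter elements, among them the ER stress response element (ERSE) and its second form ERSE-II. In ER-associated degradation, misfolded proteins are drawn back to the cytosol through a complex of the ubiquitin ligase HRD1 (gene Syvn1) and its partner SEL1L, which HERPUD1 joins, and are destroyed by the proteasome. Sensor activation acts on protein and splicing, which a probe for total mRNA need not show.

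The promoters of Herpud1, Hspa5 and Syvn1 are given here because they carry different forms of the element. The sequences are RefSeq's, build GRCm38.p6, and each holds the 150 bases before the annotated start, 5′ to 3′ on the gene's strand. Capitals mark the elements found as exact matches of their letters. In Herpud1 (chr8:94386279-94386428, + strand) the first capitals, TTGCATCA, are a C/EBP-ATF composite site read on the opposite strand, and the second are ERSE-II, ATTGG and CCACG with 1 base between them, from 52 to 42 bases before the start. In Hspa5 (chr2:34771940-34772089, + strand) and Syvn1 (chr19:6046426-6046575, + strand) they are ERSE, CCAAT and CCACG with 9 bases between them.
Herpud1: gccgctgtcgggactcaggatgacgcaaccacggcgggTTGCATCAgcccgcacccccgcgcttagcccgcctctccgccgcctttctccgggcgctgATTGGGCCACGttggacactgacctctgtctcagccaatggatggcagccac
Hspa5: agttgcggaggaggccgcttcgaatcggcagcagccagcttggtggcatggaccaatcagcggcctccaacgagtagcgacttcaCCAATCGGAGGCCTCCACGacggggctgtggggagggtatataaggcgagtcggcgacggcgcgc
Syvn1: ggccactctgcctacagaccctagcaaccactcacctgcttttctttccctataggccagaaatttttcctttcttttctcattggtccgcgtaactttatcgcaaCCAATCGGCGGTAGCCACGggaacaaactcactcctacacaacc

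Windows of 250 bases before to 50 after the start were searched on both strands for 9 of the 10 members, and none was given for Atf6. Only exact matches were counted, so forms of an element with a changed base are not included. ERSE was found in 39 of 32851 promoters (0.119%), among them Hspa5 and Syvn1. ERSE-II was found in 12 promoters (0.0365%), Herpud1 being the only member among them. The letters of the composite site, TGATGNAA, were found in 1304 promoters (3.97%), Herpud1 again being the only member. The unfolded protein response element core, TGACGTGG, was in 222 promoters (0.676%) and in none of the 9 windows. ERSE-II and the composite site do not overlap in Herpud1. A match of letters is a description of the sequence and not evidence that a factor binds there.

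Herpud1 stood apart from the other 9 members. Its transcript was 2.35-fold higher on the arrays labelled KO, while the other 9 differed between the genotypes by -0.42 to 0.27 on the log2 scale, with groups that overlapped in this scaling. Its log2 level was 3.29, 3.54 and 3.55 on KO replicates 1, 2 and 3, against 2.31, 2.26 and 2.10 on WT replicates 1, 2 and 3. All 3 KO arrays lay above all 3 WT arrays, and the gap of 0.98 between the nearest arrays of the groups was wider than the range within either group (0.26 in KO, 0.21 in WT). The means were 3.46 ± 0.15 in KO and 2.22 ± 0.11 in WT (SD, n = 3 each), a log2 difference of 1.23 ± 0.16 (SE from the fit over all genes). HERPUD1 is a membrane protein of the ER with a ubiquitin-like domain, known as one of the genes most strongly induced by ER stress. Of the 10 members, Herpud1 was the only one whose groups did not overlap, where 18.2% of all genes tested had groups that did not overlap. A positive difference at least as large was seen in 174 of 21219 genes, Herpud1 included. These values chose Herpud1 and nothing is read from them.

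**Figure D1:**
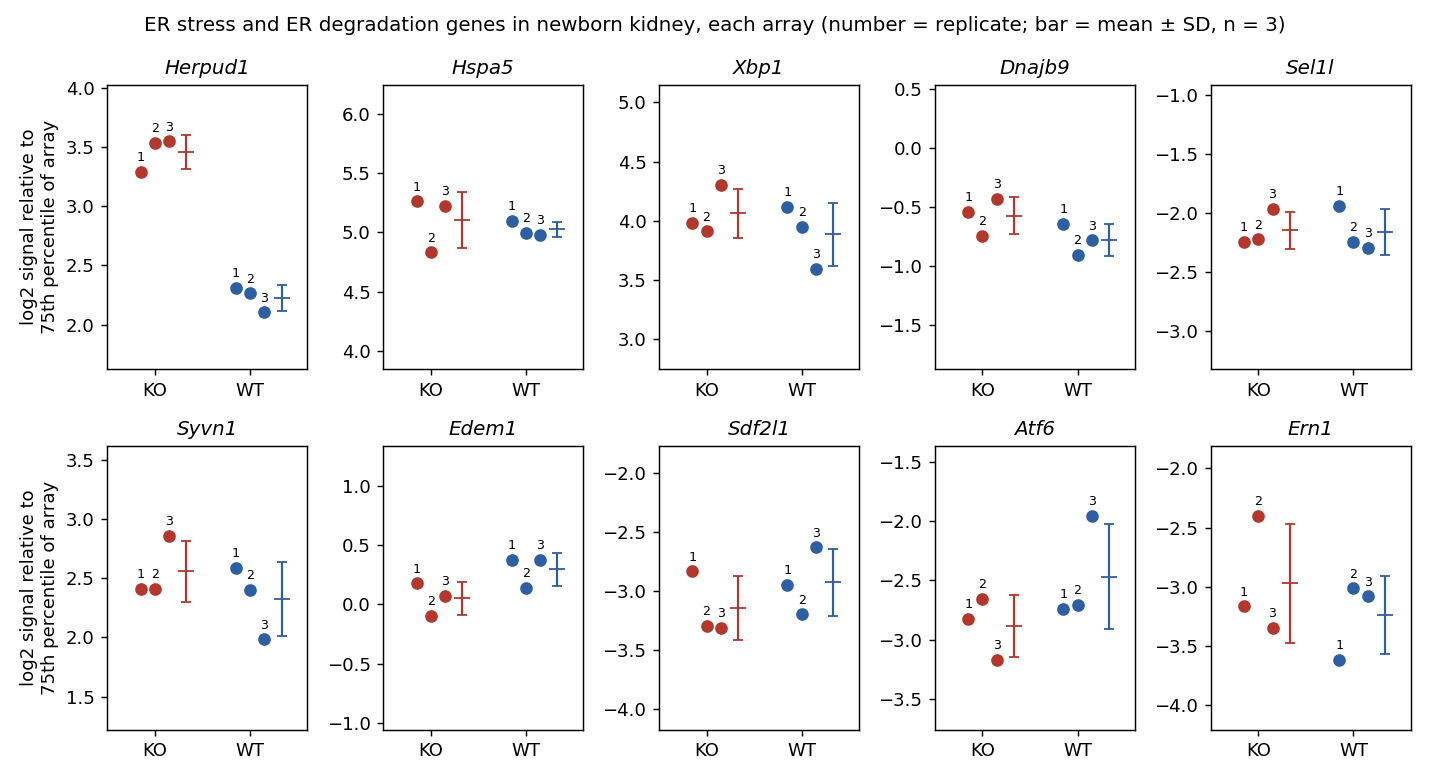
Level of each of the 10 members on every array, as log2 signal relative to the array's 75th percentile, with KO arrays left (red) and WT arrays right (blue); numbers are replicates, and bars are mean ± SD (n = 3). All panels span the same number of log2 units, and levels are not comparable between panels because each gene has its own probe. Herpud1 separates the groups, at 3.29 to 3.55 in KO and 2.10 to 2.31 in WT, and the groups of the other 9 overlap.

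The difference of Herpud1 was alike in both scans, at 1.23 within scan 1 and 1.24 within scan 2 on the log2 scale. Against WT replicate 3 alone it was 1.36. With 1 array left out in turn it lay between 1.17 and 1.32. With normexp background correction and 75th percentile scaling it was 1.15, where the median of all genes was 0.14, and with normexp and quantile normalisation it was 1.10. The 2 WT arrays with Xist signal, replicates 1 and 2, had the higher Herpud1 levels of the WT group.

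Among the sensors and their transcription factor no member separated the genotypes with 75th percentile scaling of the deposited signal, while both sensors did so under other processing of the same 6 arrays. Ern1, which encodes the sensor IRE1, had -3.17, -2.40 and -3.34 in KO replicates 1 to 3, against -3.62, -3.01 and -3.08 in WT replicates 1 to 3. KO replicate 2 was its highest array, and without it the log2 difference of 0.27 ± 0.29 (SE) was -0.018. Against WT replicate 3 alone the difference of Ern1 was 0.11. With normexp and the 75th percentile all 3 KO arrays of Ern1 lay above all 3 WT arrays, at a difference of 0.35. The median of all genes was 0.14 in that setting. Atf6 stood at -2.82, -2.66 and -3.17 in KO, against -2.74, -2.71 and -1.95 in WT. WT replicate 3 was its highest array by a wide margin, and the difference of -0.42 ± 0.26 (SE) was -0.16 without that array, -0.93 against that array alone and -0.074 with normexp and the 75th percentile. All 3 KO arrays of Atf6 lay below all 3 WT arrays with array median scaling (-0.45), with quantile normalisation (-0.44) and with normexp and quantile normalisation (-0.25). Xbp1 had 3.98, 3.91 and 4.30 in KO, against 4.12, 3.95 and 3.60 in WT. The groups overlapped, with a difference of 0.18 ± 0.20 (SE), and WT replicate 3 was the lowest array, so that the difference was 0.032 without it and 0.47 against it alone. The files give no probe sequence, so spliced and unspliced Xbp1 were not told apart.

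The chaperone group was likewise flat or mixed. Hspa5 had 5.26, 4.83 and 5.22 in KO, against 5.10, 4.999 and 4.98 in WT, and the KO arrays lay on both sides of all WT arrays. Its difference was 0.081 ± 0.18 (SE), with values between -0.055 and 0.22 over the alternatives and 0.13 against WT replicate 3 alone. BiP is the chaperone whose transcript is the usual marker of an unfolded protein response. Dnajb9 encodes ERdj4, a J-domain partner of BiP known from hamster cells to hold IRE1 in check. It had -0.54, -0.74 and -0.43 in KO, against -0.65, -0.91 and -0.78 in WT. The groups overlapped only through KO replicate 2 and WT replicate 1. The difference was 0.21 ± 0.17 (SE), and also 0.21 against WT replicate 3 alone. Its second, dimmer probe had -2.93 on all 3 KO arrays and -3.40, -3.35 and -3.16 on the WT arrays, so on that probe the groups did not overlap (log2 difference 0.37). Sdf2l1, an ER-resident partner of such J-domain proteins, had -2.83, -3.29 and -3.31 in KO, against -2.95, -3.20 and -2.63 in WT. Its groups overlapped, with a difference of -0.22 ± 0.22 (SE), and -0.51 against WT replicate 3 alone. The difference of Sdf2l1 took the opposite sign, 0.11, with normexp and the 75th percentile, where all 3 KO arrays lay above all 3 WT arrays. In that setting the median of all genes was 0.14, above the value of Sdf2l1. With normexp and quantile normalisation the difference of Sdf2l1 was -0.099.

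Of the degradation machinery that HERPUD1 joins, no other member separated the genotypes. Syvn1, the ubiquitin ligase gene of the complex, had 2.41, 2.41 and 2.86 in KO, against 2.59, 2.40 and 1.98 in WT. Its difference was 0.23 ± 0.23 (SE), 0.062 without WT replicate 3 and 0.58 against that array alone. Sel1l, whose protein holds the ligase complex together, had -2.25, -2.22 and -1.97 in KO, against -1.94, -2.25 and -2.29 in WT. The groups covered nearly the same range, and the difference was 0.015 ± 0.18 (SE), and 0.15 against WT replicate 3 alone. Edem1, which encodes a lectin-like protein that sends misfolded glycoproteins to degradation, had 0.18, -0.095 and 0.071 in KO, against 0.38, 0.14 and 0.38 in WT. It was lower in KO by mean, with a difference of -0.25 ± 0.17 (SE), and KO replicate 1 lay above WT replicate 2. The difference of Edem1 was negative under all 19 alternatives, between -0.33 and -0.17, and was -0.32 against WT replicate 3 alone.

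On single arrays, the members other than Herpud1 showed no common shift. Relative to each gene's WT mean, Herpud1 stood at 1.06, 1.31 and 1.32 on KO replicates 1, 2 and 3. The median of the other 9 on the same arrays was 0.082, -0.063 and 0.19, against 0.081, -0.086 and -0.0037 on WT replicates 1, 2 and 3. Over the genotypes the median log2 difference of the other 9 was 0.081, against 0.031 for all genes tested, and 6 were positive and 3 negative, where 53.7% of all genes were positive. The difference of Herpud1 exceeded that median by 1.15. Within both scans each of the other 9 kept the sign of its difference, except Sel1l (0.035 in scan 1 and -0.025 in scan 2). Within each group the other members moved in different directions. KO replicate 3 was the highest KO array for Xbp1, Syvn1, Sel1l and Dnajb9 and the lowest for Atf6, Ern1 and Sdf2l1. WT replicate 1, which shares scan 2 with KO replicate 3, was the highest WT array for Xbp1, Syvn1, Sel1l and Dnajb9. It was the lowest WT array for Atf6 and Ern1, while WT replicate 2 was the lowest for Sdf2l1. The part of the scan in these shifts was not tested. WT replicate 3 was the lowest WT array for Xbp1, Syvn1 and Sel1l and the highest for Atf6 and Sdf2l1.

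The wider pathway was read from 5 lists of 110 genes, none of them a member. Of 108 measured, none passed an adjusted p of 0.05 in limma, where 0.0801% of all genes did, and 7 had an unadjusted p under 0.05, where 10.4% of all genes did. All 7 lay in the lists of the PERK arm and of other sensors and regulators, and no list was tested as a set. No pathway gene passed under any of the 19 alternatives, among which the share of all genes passing was highest, at 0.25%, with scan as a block. The median log2 difference was 0.068, against 0.031 for all genes, with 61 positive and 47 negative. The groups did not overlap for 10 genes higher in KO and 5 lower, where 10.2% of all genes were higher and 8% lower without overlap. The 2 genes not measured, the IRE1 paralogue Ern2 and the chaperone gene Hyou1, were not well above background on all arrays of either group.

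**Figure D2:**
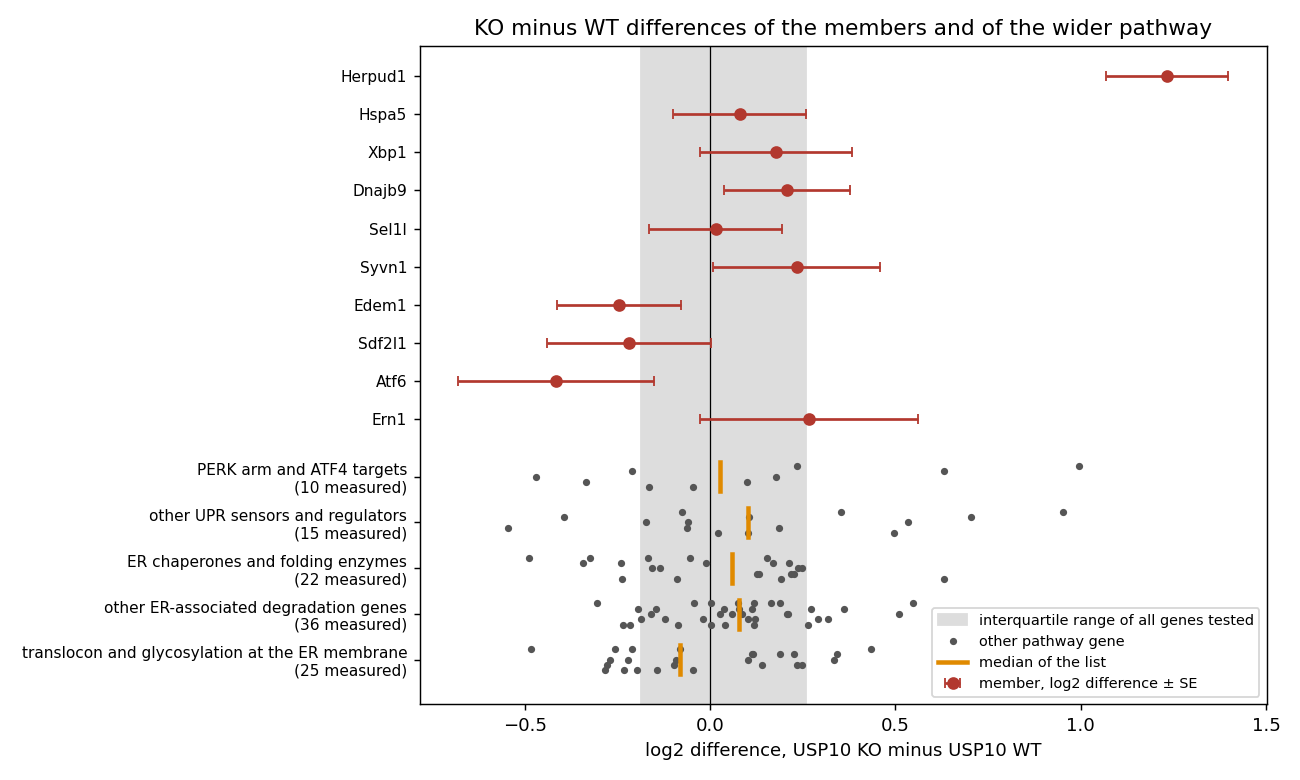
Log2 differences, USP10 KO minus USP10 WT, of the 10 members (red, ± SE) and of 108 other pathway genes (grey dots, 1 row a list), with the median of each list (orange) and the interquartile range of all 21219 genes tested (grey band). Herpud1 lies at 1.23, all other members between -0.42 and 0.27, and the 5 list medians between -0.081 and 0.10.

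Genes of the PERK arm, the third sensor with its downstream factor ATF4, went in both directions. Of 10 measured, 5 were positive and 5 negative, with a median of 0.028. An unadjusted limma p under 0.05 was seen in 3, namely Trib3, Eif2ak3 and Atf3, where 10.4% of all genes had one. Trib3, a pseudokinase gene that ATF4 induces, averaged -1.54 ± 0.45 in KO and -2.53 ± 0.16 in WT (SD, n = 3 each), with no overlap (difference 1.00 ± 0.25 SE, limma adjusted p = 0.323). Eif2ak3, which encodes PERK itself, averaged 1.43 ± 0.13 in KO and 0.79 ± 0.37 in WT, also with no overlap (0.63 ± 0.22 SE, limma adjusted p = 0.436). The stress transcription factor gene Atf3 and the glutathione-degrading enzyme gene Chac1, both known as targets of this arm, lay the other way without overlap. Their differences were -0.47 ± 0.18 and -0.34 ± 0.17 (SE), with limma adjusted p of 0.461 and 0.520. Atf4 and Ddit3, which encodes the death-linked factor CHOP, were picked after their values were seen and differed by 0.23 and 0.10, with overlapping groups.

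Of 15 measured sensors and regulators besides, 9 were positive and 6 negative (median 0.10). The 4 of smallest p did not pass after adjustment, and were the 4 of these 15 with an unadjusted limma p under 0.05, where 10.4% of all genes had one. Cebpb, a C/EBP transcription factor gene, averaged 3.31 ± 0.22 in KO and 2.36 ± 0.18 in WT (SD, n = 3 each; difference 0.95 ± 0.19 SE, limma adjusted p = 0.184). Bbc3, the gene of the death protein PUMA, differed by 0.70 ± 0.15 and Map3k5, the gene of the kinase ASK1, by 0.53 ± 0.16 (SE), with limma adjusted p of 0.233 and 0.400. Both lay higher in KO without overlap. Rtcb, which encodes the ligase that joins the Xbp1 exons after IRE1 has cut them, averaged 0.92 ± 0.18 in KO and 1.47 ± 0.30 in WT (difference -0.55 ± 0.21 SE, limma adjusted p = 0.457). Rtcb was lower on all 3 KO arrays.

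Chaperones and folding enzymes divided evenly, 11 positive and 11 negative of 22 measured, with a median of 0.059. No member of the list reached an unadjusted p under 0.05. Lowest in p were the oxidase gene Ero1a (-0.49 ± 0.22 SE) and the disulfide isomerase gene Pdia3 (-0.34 ± 0.20), followed by its relative Pdia4 (0.24 ± 0.17) and Sdf2, the paralogue of Sdf2l1 (0.23 ± 0.17), with limma adjusted p between 0.487 and 0.633. Pdia4 alone of these 4 had groups that did not overlap.

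The other degradation genes had 25 positive and 11 negative of 36 measured, with a median of 0.077. None reached an unadjusted p under 0.05. Lowest in p were the lectin gene Erlec1 (0.55 ± 0.26 SE), Fam8a1, known from human cells as an HRD1 cofactor gene (0.36 ± 0.19), Ufd1, whose protein works with the extracting ATPase (0.51 ± 0.28), and the ligase gene Rnf185 (0.32 ± 0.22). Their limma adjusted p lay between 0.504 and 0.590, and only for Fam8a1 did the groups not overlap. Herpud2, the paralogue of Herpud1, picked after its value was seen, had 0.58, 0.39 and 0.73 in KO, against 0.93, 0.59 and 0.74 in WT. Its groups overlapped, with a difference of -0.19 ± 0.18 (SE).

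Genes of entry and glycosylation at the ER membrane had 11 positive and 14 negative of 25 measured, with a median of -0.081. The oligosaccharyltransferase genes Ddost and Dad1 differed by -0.48 ± 0.22 and -0.28 ± 0.17 (SE), and the translocon-associated genes Ssr1 and Sec62 by 0.34 ± 0.20 and 0.33 ± 0.20. These were the 4 of smallest p, with limma adjusted p between 0.485 and 0.561, and none of the 25 reached an unadjusted p under 0.05. Only for Dad1 did the groups not overlap, lower in KO, where 8% of all genes were lower without overlap.

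Genes that share a promoter element with Herpud1, Hspa5 or Syvn1 spread on both sides of 0. Of 12 genes with ERSE-II, 8 were measured, with a median log2 difference of -0.011 and a range from -0.42 to 1.23. Herpud1 was the highest of them. Dnajb11, a BiP partner gene with ERSE-II just after its start, differed by -0.054 ± 0.25 (SE). Of 37 genes with ERSE, 19 were measured, with a median of 0.081, equal to that of Hspa5, which carries it, and a range from -0.34 to 2.79. The highest were Xlr3b at 2.79 ± 0.61 and Acnat2 at 1.28 ± 0.31 (SE), neither of them in the pathway lists and both higher in KO without overlap. The 8 other pathway genes with ERSE, all measured, included Hsp90b1 at -0.010, Calr at -0.32 and Creld2 at 0.25. Among genes with the composite site, 355 were measured, with a median of 0.060. They held Herpud1 and Trib3, at 1.23 and 1.00, and also Atf3, Chac1 and Asns, at -0.47, -0.34 and -0.045. These genes were picked by their promoters after their values were seen.

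**Figure D3:**
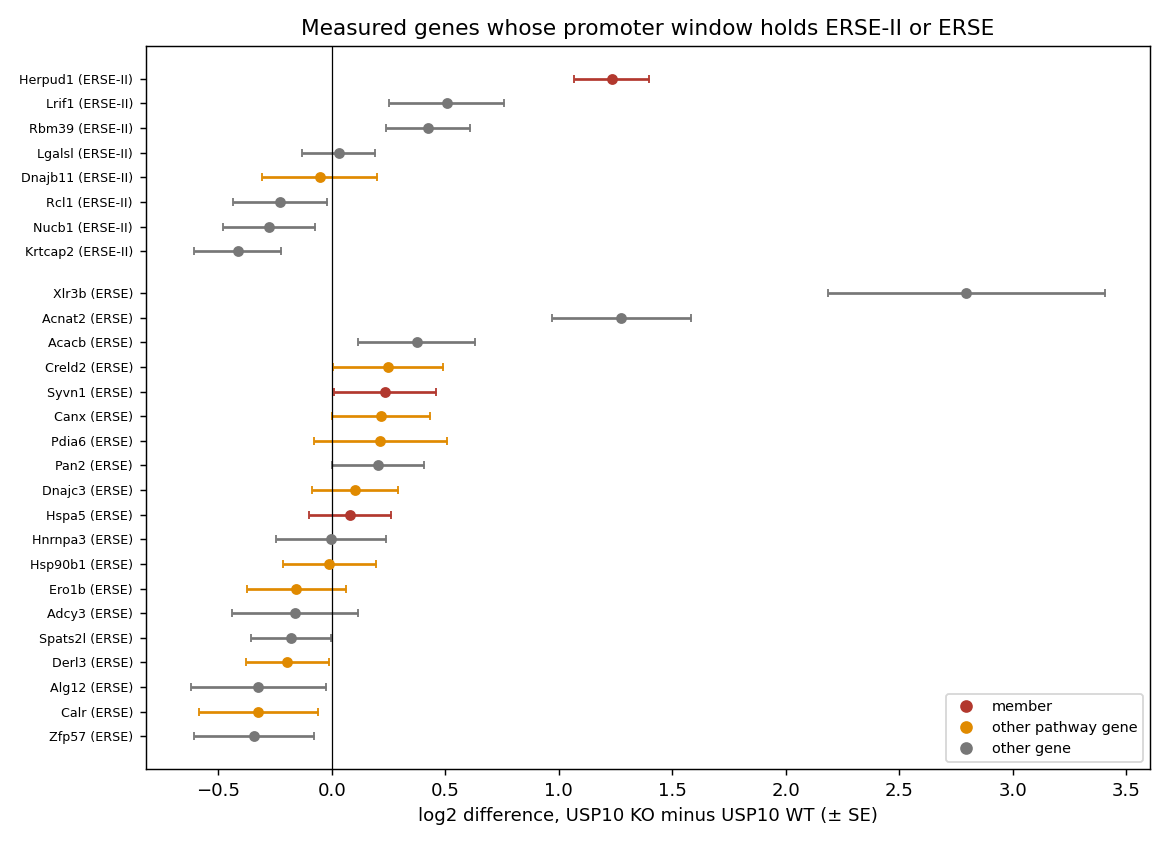
Log2 differences, USP10 KO minus USP10 WT, with SE, of all measured genes whose promoter window holds ERSE-II (upper block, 8 genes) or ERSE (lower block, 19 genes). Members are red, other pathway genes orange, other genes grey. Both blocks spread on both sides of 0, and Herpud1 at 1.23 is the highest of the ERSE-II genes, while Hspa5 and Syvn1 lie at 0.081 and 0.23 and Xlr3b, at 2.79, is the highest of the ERSE genes.

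The genes whose profile over the 6 arrays was most like that of Herpud1 were not ER genes of any of the lists. By Pearson correlation among 6697 other named genes with a mean level of at least 0, they were Zbtb16, Noct, Cebpd, Irs2 and Pex11a, with r between 0.991 and 0.996 over 6 arrays. Such values follow in large part from a shared split between the genotypes and are given as a description. Zbtb16, a zinc-finger transcription factor gene, differed by 2.46 and Cebpd, a C/EBP family factor gene, by 1.83. Noct, a gene of a rhythmic NADP phosphatase, differed by 0.87, the insulin receptor substrate gene Irs2 by 0.60 and the peroxisome gene Pex11a by 1.24. None of the 5 had overlapping groups, where 18.2% of all genes tested had groups that did not overlap. Genes picked for a profile so like that of Herpud1 separate the groups by that choice, so nothing is read from it. Among the members the correlation with Herpud1 was highest for Dnajb9 (0.65) and lowest for Edem1 (-0.79), over the same 6 arrays. Herpud1 and Irs2 lie on chromosome 8, as Usp10 does, while the other 9 members lie on chromosomes 1, 2, 6, 11, 12, 16 and 19.

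Markers of other cell types were read beside Herpud1. Of 9 macrophage markers 8 were measured, and their summed linear level was 5.67 to 5.94 in KO and 6.36 to 7.44 in WT. Of these, 4 were lower in KO without overlap, where 8% of all genes were. Of 6 plasma cell markers, cells with a large ER, 4 were measured at sums of 0.343 to 0.538 in KO and 0.326 to 0.605 in WT, and the defining genes Jchain and Tnfrsf17 were not well above background. Of 9 adrenal markers 4 were measured, at sums of 0.592 to 0.836 in KO and 0.494 to 0.690 in WT, and Cyp11a1, Star and Dbh were not well above background. Of 6 liver markers 5 were measured, at sums of 4.68 to 5.61 in KO and 4.44 to 5.65 in WT. The adrenal and liver lists each held 1 gene higher in KO without overlap, where 10.2% of all genes were. The macrophage sum was the only one of these without overlap between the genotypes, and its part in the Herpud1 difference was not tested.

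**Figure D4:**
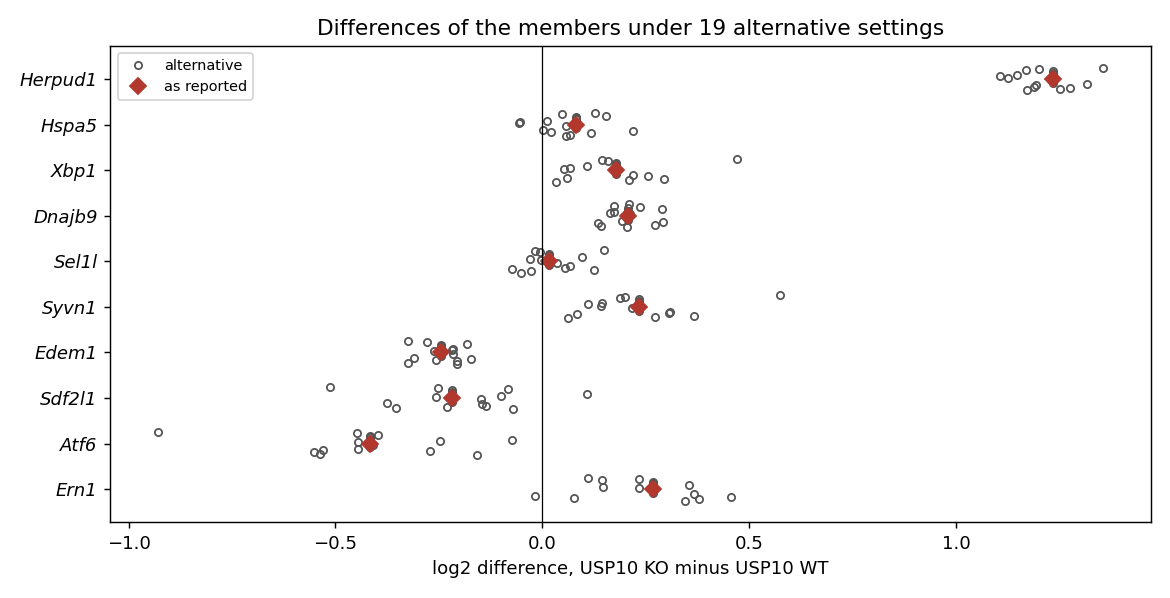
Log2 difference, USP10 KO minus USP10 WT, of each member as reported (red diamond) and under 19 alternative settings (open circles: other scalings, background corrections, filters, blocks and arrays left out). Herpud1 stays between 1.10 and 1.36, and the other members lie between -0.93 and 0.58, with Hspa5, Sel1l, Sdf2l1 and Ern1 on both sides of 0.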

How the data were processed

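Per the labels' protocols, RNA from the kidneys of 6 neonates was read on Agilent arrays with a single dye (Cy3). The authors deposited linear intensity values per spot, with background removed and no scaling between arrays per the file headers, made with Agilent Feature Extraction (11.0.1.1 per the file headers, 9.1 per the submitters' processing notes; the difference was not resolved). Control spots and spots flagged as outliers were left out, log2 intensity was set relative to each array's 75th percentile, and repeated spots were averaged by probe. Accessions named 69.1% of 39429 probes through a RefSeq table of GRCm38.p6, used for names, chromosomes and promoters, since the array design names mm9. Probes were kept where at least 50% of their spots were well above background on every array of either group, and each gene was read from its brightest such probe. This left 21219 genes, fitted with limma 3.58.1 in R 4.3.3 (two-sided, Benjamini-Hochberg adjusted p, threshold 0.05) on groups taken from the labels, and tested on simulated data.

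The members and lists were chosen with earlier results of these data known. The rule for named genes took all 10 members, Usp10, the 4 genes of smallest p in each of 5 pathway lists, and the 5 genes most like Herpud1. Other genes are named as chosen after their values were seen. The alternatives were other scalings, normexp with an offset of 50 on the median signals, other filters, the mean of a gene's probes, a variance trend, array weights, blocks for replicate number and scan, and arrays left out. The 4 arrays of scan 1 alone were added after the data were seen. An exact permutation test of 3 against 3 cannot go below p = 0.1 (two-sided), so none is given.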

Additional observations from a re-analysis of the deposited data

How the results depend on the processing

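The log2 difference of Herpud1 lay between 1.10 and 1.36 under the 19 alternatives and moved in each by less than 1 SD, pooled over both groups; the moves to both ends of that range exceeded the SD within WT. The count of pathway genes passing stayed at 0 in each, with 3 to 11 of them at an unadjusted p under 0.05 in limma. The median of the other 9 members was -0.030 with normexp and quantile normalisation and otherwise moved by less than 1 SD, with 0.021 to 0.12 when 1 array was left out. Members whose groups did not overlap numbered 1 as reported, 8 against WT replicate 3 alone, 4 within scan 1 alone, 3 with normexp before 75th percentile scaling (Herpud1, Ern1 and Sdf2l1), and 2 with array median scaling, quantile normalisation, normexp and quantile normalisation (each Herpud1 and Atf6), or probes of a gene averaged (Herpud1 and Dnajb9). With fewer arrays groups overlap less easily, and with 1 array left out the number was 1 to 4, with 4 without KO replicate 2 or WT replicate 1, 3 without KO replicate 1 and 2 without WT replicate 2. Herpud1 was among them in each of the 19.

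Over all genes 17 passed as reported, against 53 with scan as a block, 46 with array weights, 45 with an intensity trend, 27 with normexp before 75th percentile scaling, and 1 with probes of a gene averaged or with the filter on all 6 arrays. The count was 0 with no filter on dim probes, with normexp and quantile normalisation and against WT replicate 3 alone. In these settings 2050, 2205 and 2019 genes had a limma p under 0.05 before adjustment. It was 0 to 28 with 1 array left out, 28 without KO replicate 3 and 0 without any other array. The cause of these shifts was not tested. With the replicate number as a block 0 genes passed, with 1612 at an unadjusted p under 0.05, and the difference of Herpud1 stayed at 1.23. Deviations of same-numbered arrays correlated at -0.40, 0.48 and -0.60 across genes for numbers 1, 2 and 3. With 3 arrays a group these values cannot show whether same-numbered samples belong together, and the reported fit used no pairing. The largest correlation of any KO array with any WT array was 0.89, between KO replicate 3 and WT replicate 1, the arrays of scan 2. Detection above background did not limit the members, while the number of arrays did. The values of the dim members Sdf2l1, Atf6 and Ern1 differed between the settings with normexp and the reported one. With normexp and the 75th percentile their log2 differences were 0.11, -0.074 and 0.35, against -0.22, -0.42 and 0.27 as reported. With normexp and quantile normalisation they were -0.099, -0.25 and 0.15. Both normexp settings also used the median signals and an offset, so the part of the background correction alone was not tested.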
